A study of Mus musculus with 8 samples.

Results

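Vip interneurons were taken from the hippocampus of 8 mice as 129 nuclei among 1678 inhibitory nuclei and 32041 nuclei in all that passed the filter (at most 5% mitochondrial unique molecular identifiers, UMIs, and between 200 and 7500 genes). An inhibitory nucleus had at least 3 UMIs of Gad1 and Gad2 together, the GABA-synthesizing enzymes, and more of these than of Slc17a7 and Slc17a6, the vesicular glutamate transporters. A Vip nucleus was an inhibitory nucleus with at least 2 UMIs of Vip, the gene of vasoactive intestinal peptide, and at most 2 of Sst, the gene of somatostatin. Vip (ENSMUSG00000019772) lies at chr10:5639218-5647617, + strand, in the GENCODE M21 annotation of mouse build GRCm38, and is protein coding.

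Vip interneurons arise in the caudal ganglionic eminence of the embryo and are known in the hippocampus as a mixed class. Some contact other interneurons and so release pyramidal cells from inhibition, and these often hold calretinin, the product of Calb2. Others are basket cells that hold cholecystokinin, the product of Cck, and contact pyramidal cell bodies.

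The mice were of strain C57BL/6 in the labels, C57BL/6N in the study's methods. There were 3 WT and 3 GKO mice aged 7 mo, 1 J20;WT mouse and 1 J20;GKO mouse aged 6 mo, with 1 library each, so mice and not nuclei were the replicates. GKO mice (GSAP -/-) carry a constitutive deletion made by crossing a floxed Gsap allele with CMV-Cre, so that Gsap is targeted in every tissue. J20 mice carry a human APP transgene with the Swedish and Indiana mutations under the PDGFB promoter, and the J20 mice had no other mouse of their genotype and age. Mice of both sexes were present in each of the WT and GKO groups by their levels of Xist and Eif2s3y: WT 1, GKO 1 and the J20;GKO mouse held Xist. The 3 WT against 3 GKO comparison asked whether the loss of GSAP, a protein that steers γ-secretase toward the amyloid precursor protein, altered this class.

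Each library held between 21020159 and 43310978 UMIs in kept nuclei. The number of Vip nuclei was 24, 7 and 12 in the WT mice, 11, 27 and 23 in the GKO mice, 9 in the J20;WT mouse and 16 in the J20;GKO mouse, and their summed UMIs ranged from 68919 to 287704 per mouse. Library pairs shared between 2 and 27 barcodes, and no barcode of a Vip nucleus was found in another library. Levels of UMIs below are CPM, the UMIs of a gene scaled to the total UMIs of the summed nuclei of 1 mouse. These are 3′ tags counted per gene, so values are compared between groups of nuclei for 1 gene and not between genes. Values over the 8 mice are given as the lowest, the median and the highest, and log2 fold changes as the estimate ± its SE.

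The gate found nuclei that carried the other markers of the class. Adarb2, an inactive member of the RNA-editing enzyme family that marks interneurons of caudal origin and that the gate did not read, had a UMI in 128 of 129 Vip nuclei (99.2%). It had one in 52.0% of the other inhibitory nuclei and in 11.1% of 4946 oligodendrocyte nuclei, a reference class that should lack it and had at least 10 UMIs of the myelin genes Mbp, Mobp and Mog together and none of Gad1, Gad2, Slc17a7 or Slc17a6. The median UMIs per nucleus of these classes over all libraries were 8372 in Vip nuclei and 2347 in the oligodendrocyte reference. With each nucleus thinned to 3000 UMIs the shares were 96.1% of 128 Vip nuclei, 38.7% of 1529 other inhibitory nuclei and 14.6% of 1083 reference nuclei. Vip nuclei were shallower than the other inhibitory nuclei in 8 of 8 libraries, with library medians of 6858 to 13694 UMIs against 11194 to 15616 and of 3094 to 4020 genes against 4298 to 4946.

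Vip itself, since the nuclei were chosen by their UMIs of Vip, Sst, Gad1, Gad2, Slc17a7 and Slc17a6, is given as a description. Its UMIs per Vip nucleus ran from 2 to 247 with a median of 27. There were 12 nuclei at 2 UMIs, 20 at 3 to 9 and 97 at 10 or more, 18 of which had at least 100. The summed Vip level was 2676, 5964 and 5383 CPM in the WT mice, 1222, 3985 and 3609 in the GKO mice, 8226 in the J20;WT mouse and 13705 in the J20;GKO mouse. The WT and GKO values overlapped, and the J20;WT and J20;GKO mice stood above the other 6, with a median of 77 and 102.5 Vip UMIs per nucleus. In the J20;GKO mouse all 16 nuclei had at least 34.

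**Figure D1:**
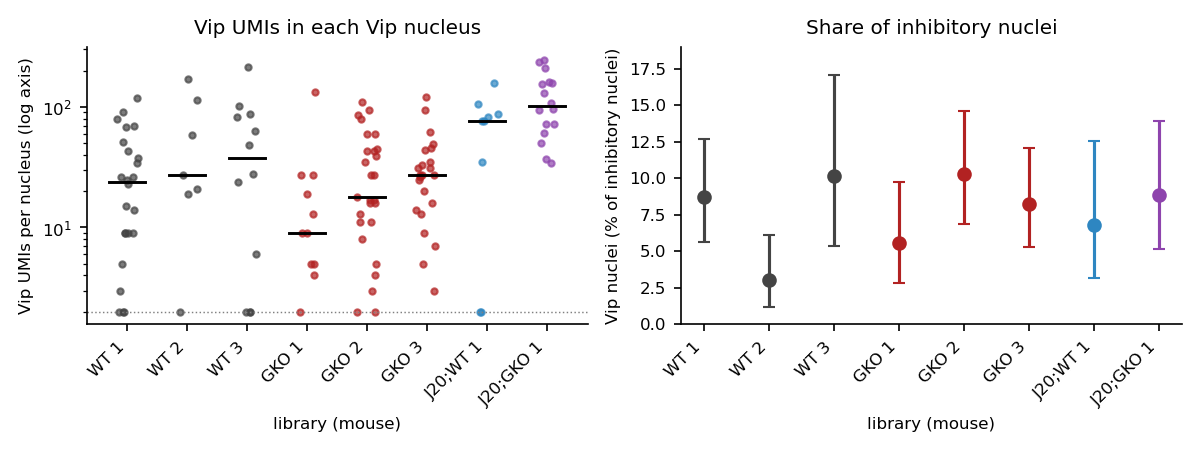
Left, Vip UMIs in each of the 129 Vip nuclei (log axis) by library, 1 point per nucleus, with the median as a black line and the gate's 2 UMIs dotted; right, Vip nuclei as a percentage of inhibitory nuclei in each library, with bars for the exact binomial 95% interval, which covers counting error only. Nuclei of the J20;GKO mouse sit at 34 UMIs or more, and the shares of the WT and GKO mice overlap, from 3.02 to 10.2% and from 5.56 to 10.3%.

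At the edge of the gate the 12 nuclei with 2 Vip UMIs had 3200.3 CPM of Adarb2 and 747 of Nxph1, a neurexin ligand of medially derived interneurons. The 117 nuclei with 3 or more had 12743 and 99.3 CPM. Just outside, the 32 inhibitory nuclei with 1 Vip UMI and at most 2 of Sst had 4489 CPM of Adarb2 and 1018 of Nxph1. For both genes the nuclei just inside the gate lay closer to those just outside it than to the other Vip nuclei.

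The gate also left out nuclei with much Vip. Of all Vip UMIs in the 8 libraries, 59.6% (6302) were in the Vip nuclei and 22.9% (2426) in nuclei with 1 or 2 UMIs of Gad1 and Gad2. Among the latter, 43 nuclei had at least 10 Vip UMIs. They held 8949 CPM of Adarb2, 1272 of Synpr, a synaptic vesicle protein, and 404 of Tac2, the neurokinin B precursor, and no UMI of Lhx6. The 97 Vip nuclei with at least 10 Vip UMIs held 12460.1, 1366 and 373 CPM of the same genes, likewise with no Lhx6. No reference oligodendrocyte of 4946 had as many as 10 Vip UMIs. Nuclei with no UMI of Gad1 or Gad2 held 9.30% of all Vip UMIs, and 7 of them had at least 10. Among nuclei with at least 3 UMIs of Gad1 and Gad2 but not more than of Slc17a7 and Slc17a6, 12 had at least 10 Vip UMIs.

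The first comparison asked what the Vip nuclei expressed that the other inhibitory nuclei of the same mice did not. Genes of caudal origin were higher and most tested genes of the medial ganglionic eminence lower. Several genes of peptides and neuromodulator receptors differed from these nuclei as well. A gene was called when its adjusted p was under 0.05 and its log2 fold change exceeded 0.3 in either direction, in edgeR's quasi-likelihood test on the summed counts with the mouse as a block. Of 11910 genes tested, 1320 were called (11.1%), 552 higher (4.63%) and 768 lower (6.45%). The split depended on the scaling: 652 were higher and 637 lower with RLE size factors, and 550 and 479 in DESeq2. The 6 genes that the gate reads were left out.

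All 6 genes of the caudal lineage list were called higher, with a median log2 fold change of 2.01 against -0.05 over all genes tested. Adarb2 lay at 8739, 11598 and 14689 CPM in the Vip nuclei and 1734, 2466 and 3178 CPM in the other inhibitory nuclei (log2 fold change 2.16 ± 0.12, adjusted p = 6.02e-27). Prox1, a homeobox factor needed for the maturation of these cells, lay at 102, 148 and 299 CPM against 19.9, 32.1 and 48.5 CPM (log2 fold change 2.39 ± 0.18, adjusted p = 2.63e-15). Every Vip sum was above every sum of the other nuclei for both genes.

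Htr3a, the ion channel subunit of the serotonin 3 receptor, lay at 40.2, 89.6 and 228 CPM in Vip nuclei and 6.97, 12.4 and 24.8 CPM in the others (log2 fold change 2.82 ± 0.24, adjusted p = 1.04e-17), again with no overlap. Npas1, a transcription factor of caudally derived interneurons, lay at 136, 210.5 and 392 CPM in Vip nuclei against 33.9, 78.4 and 103 CPM and did not overlap either (log2 fold change 1.74 ± 0.16, adjusted p = 1.99e-11). Nr2f2 (COUP-TFII), which guides migration from the caudal eminence, was higher in 8 of 8 mice with a log2 fold change of 1.41 ± 0.21 (adjusted p = 4.58e-05), and Sp8, a zinc-finger factor of the same lineage, in 5 of 8 with 1.86 ± 0.45 (adjusted p = 0.00138).

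Of the 7 medial lineage genes 6 could be tested, of which 5 were called lower and 1 was not called, with a median log2 fold change of -2.01. Lhx6, the LIM homeobox factor that specifies interneurons of medial origin, had 0 UMIs in the 129 Vip nuclei and 649 in the other inhibitory nuclei. With a floor of 3 counts over the 8 Vip sums together this is at least 13.0-fold lower. A count of 0 of 129 nuclei allows a share of up to 2.33% with a UMI (3 counts of 129, with an exact binomial 95% upper limit of 2.82%), against 433 of 1549 other inhibitory nuclei.

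Satb1 and Sox6, which act after Lhx6, fell by 2.31 and 1.71 on the log2 scale (adjusted p = 2.00e-19 and 2.09e-13). Nxph1 was at 0, 179 and 566 CPM in Vip nuclei and 1119.7, 1392 and 1624 CPM in the others, with no overlap (log2 fold change -3.06 ± 0.49, adjusted p = 0.00518). The Nxph1 UMIs that Vip nuclei held were in few nuclei. In WT 2, 25 of 25 were in 1 nucleus, in WT 3 29 of 32 and in the J20;WT mouse 32 of 43, each of them a nucleus with 2 Vip UMIs, while in GKO 3 71 of 74 were in 1 nucleus with 46 Vip UMIs.

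**Figure D2:**
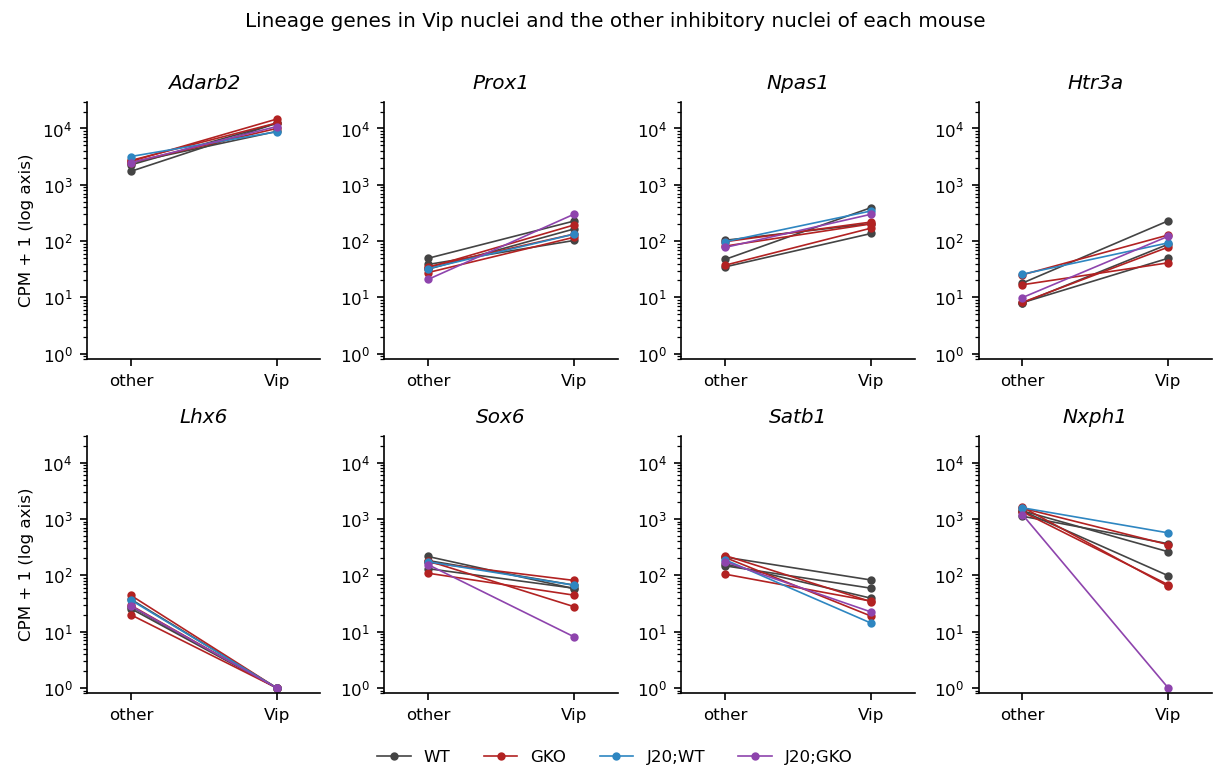
Levels (CPM + 1, log axis) of 4 caudal and 4 medial lineage genes in the other inhibitory nuclei and the Vip nuclei, with 1 line per mouse. Adarb2, Prox1, Npas1 and Htr3a are higher in Vip nuclei in every mouse, and Lhx6 is at 0 in all 8.

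Vip nuclei expressed several other peptides and transmitter genes. Of 12 genes on the list of Vip subsets and peptides, 11 were tested, 8 were called higher and 1 lower, with a median log2 fold change of 2.03. Tac2 was the called gene with the highest fold change, at 106, 351 and 522 CPM in Vip nuclei against 0.653, 2.53 and 10.6 CPM in the others (log2 fold change 6.09 ± 0.45, adjusted p = 4.57e-05), and the groups were far apart in every mouse. Calb2, which encodes the calcium-binding protein calretinin, lay at 24.1, 55.3 and 121 CPM against 2.20, 4.43 and 8.49 CPM (log2 fold change 3.78 ± 0.32, adjusted p = 1.59e-19) without overlap.

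Penk, the enkephalin precursor, was at 0, 59.7 and 213 CPM in Vip nuclei and 1.71, 9.21 and 21.1 CPM in the others (log2 fold change 3.26 ± 0.36). Crh, the corticotropin-releasing hormone gene, was at 0, 37.0 and 128 CPM against 1.31, 2.08 and 11.0 CPM (3.70 ± 0.42). Igf1, a growth factor, rose by 2.03 ± 0.13 on the log2 scale, Synpr by 1.81 ± 0.11 and Cnr1, the cannabinoid receptor of Cck basket cell terminals, by 1.47 ± 0.12. Each of these was called in every alternative setting in which it had enough counts to be tested.

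Genes of acetylcholine handling were also among those called higher. Slc5a7, the high-affinity choline transporter, lay at 0, 23.0 and 99.6 CPM in Vip nuclei and 0, 1.07 and 1.99 CPM in the others (log2 fold change 4.56 ± 0.60, adjusted p = 1.92e-08). Chat, the enzyme that makes acetylcholine, was called at 3.51 ± 0.85 from 11 UMIs in all Vip nuclei, and was at 0 in 4 of the 8 Vip sums. The remaining genes among the 12 highest were Cbln2, a synaptic organizer (4.07), Wnt10a, a Wnt ligand (4.04), Sema5b, a semaphorin (3.68), Asic4, of the acid-sensing channel family (3.54), Aebp1, and the unnamed 5330429C05Rik (4.29) and D030055H07Rik (3.76).

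Cck did not pass the test. It lay at 212, 647 and 2147 CPM in Vip nuclei and 129, 339.7 and 591 CPM in the others and was higher in 7 of 8 mice (log2 fold change 1.24 ± 0.37, adjusted p = 0.0815). It passed in DESeq2, without the mouse as a block, without WT 3 and with nuclei thinned to 3000 UMIs. Slc17a8, the vesicular transporter VGLUT3 found in some Cck basket cells, was the list's gene called lower, with 2 UMIs in Vip nuclei and a ratio to the other inhibitory nuclei of 0.115 (exact 95% interval 0.0138 to 0.418). Cxcl14, a chemokine, had a log2 fold change of 1.03, adjusted p = 0.0619, and was called higher in 10 of 17 alternative settings, DESeq2, thinning and both other Vip thresholds among them.

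**Figure D3:**
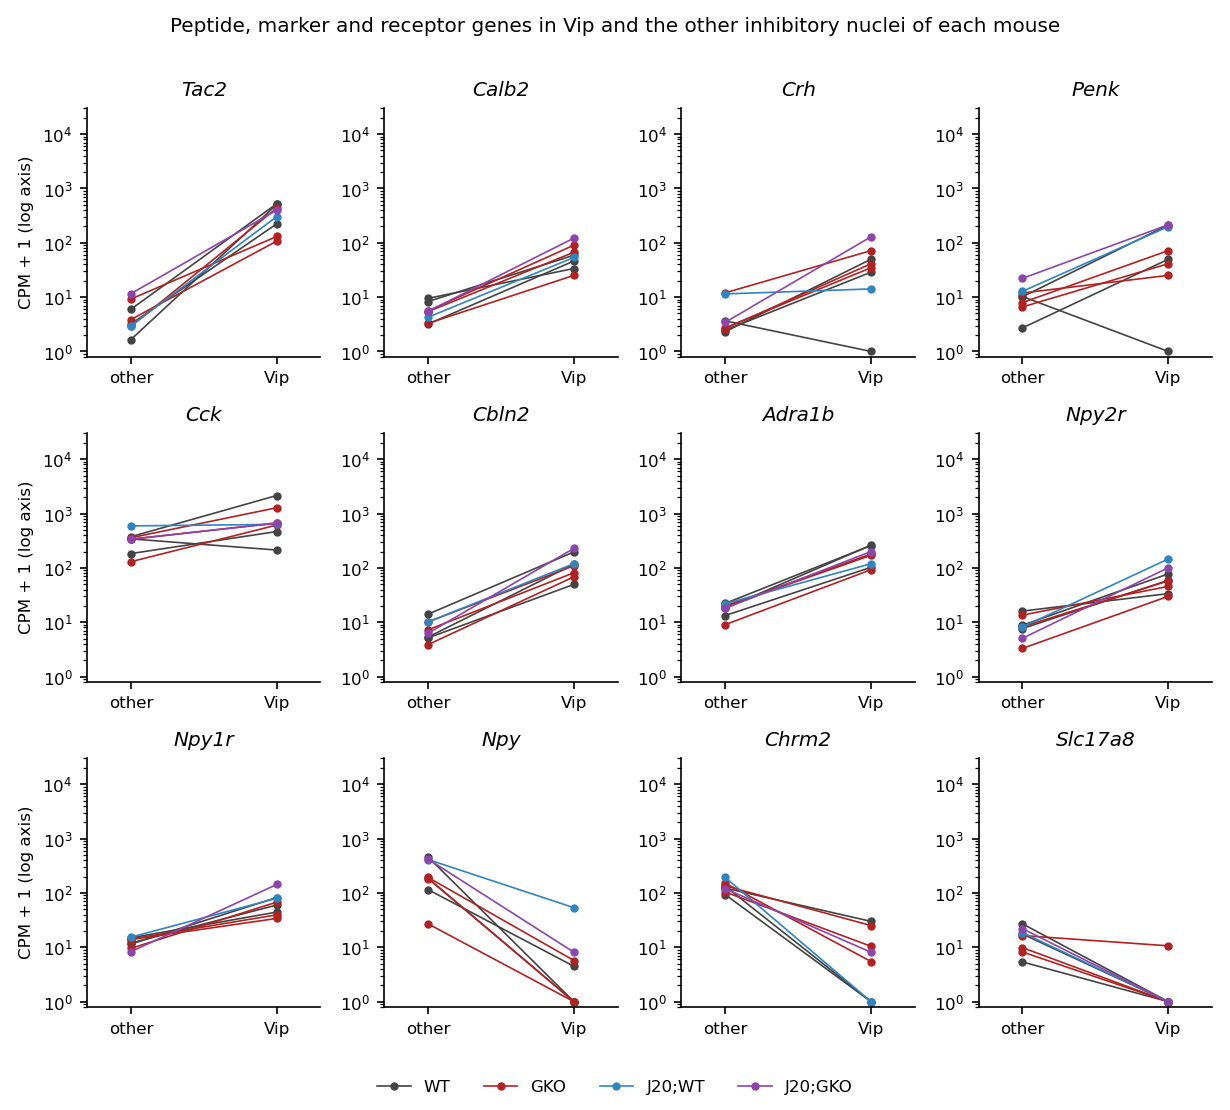
Levels (CPM + 1, log axis) of 12 peptide, transmitter and receptor genes in the other inhibitory nuclei and the Vip nuclei, 1 line per mouse. Tac2, Calb2, Cbln2 and Adra1b are higher in every Vip sum than in any sum of the others, whereas the lines of Cck cross, and Npy, Chrm2 and Slc17a8 are lower in the Vip nuclei of every mouse.

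Genes of other interneuron subclasses were partly lower. Of 9 on this list, all tested, 4 were called lower and none higher, with a median log2 fold change of -2.19. Npy, neuropeptide Y, lay at 0, 1.74 and 52.6 CPM in Vip nuclei against 26.1, 189.7 and 459.7 CPM (log2 fold change -5.32 ± 0.29, adjusted p = 4.61e-32). Lamp5, of neurogliaform cells, fell by 3.76 on the log2 scale, Reln, reelin, by 1.93 and Id2 by 1.31.

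Several of the 12 called genes with the lowest fold changes had no UMI in any Vip nucleus. With the floor of 3 counts, Cdca7 was at least 6.51-fold lower, Met, the hepatocyte growth factor receptor, at least 6.11-fold, the long noncoding 9630002D21Rik at least 7.85-fold and Layn, a hyaluronan receptor, at least 3.09-fold. Cort, the somatostatin relative cortistatin, had 1 UMI in Vip nuclei, a ratio of 0.0236 (exact 95% interval 0.000596 to 0.132). The ratio was 0.0287 for Mctp2, 0.0254 for Gm45680 and 0.0328 for Col6a3, a collagen VI chain, and Ano1, a calcium-activated chloride channel, fell by 4.40 on the log2 scale.

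Neuromodulator receptors moved in both directions. Of 18 genes on this list, with the binding protein Crhbp counted among them, 16 were tested. Of these, 7 were called higher and 4 lower, with a median log2 fold change of 0.31. Adra1b, an alpha-1 adrenergic receptor, lay at 91.7, 175 and 261 CPM in Vip nuclei and 8.02, 17.7 and 21.2 CPM in the others (log2 fold change 3.37 ± 0.17, adjusted p = 2.33e-37), with no overlap. The neuropeptide Y receptors Npy2r (3.06 ± 0.30) and Npy1r (2.51 ± 0.27) and the nicotinic subunits Chrna4 (adjusted p = 4.80e-04) and Chrna7 (0.95 ± 0.19) rose as well. Chrm3, a muscarinic receptor coupled to Gq, rose by 0.48 and Htr2c, a serotonin receptor, by 0.88, a call that was lost without WT 2, WT 3, GKO 1, GKO 2 or the J20;WT mouse.

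The receptors called lower were Chrm2, a muscarinic receptor coupled to Gi, at 0, 5.79 and 29.0 CPM in Vip nuclei against 92.4, 127 and 192 CPM (log2 fold change -3.91 ± 0.29, adjusted p = 1.84e-21), Htr2a (-2.15 ± 0.37) and Oprm1, the mu opioid receptor (-0.87 ± 0.21). Crhbp, which binds Crh and is not a receptor, was also called lower (-2.57 ± 0.34). The Oprm1 call was lost in the 6 WT and GKO mice alone, with Vip at 1 UMI or more and with thinning. Thus of the muscarinic receptors named Chrm3 was called higher and Chrm2 lower, and of the serotonin type 2 receptors Htr2c higher and Htr2a lower, in sums over the Vip nuclei of each mouse. The Chrm3 and Htr2c calls were each lost in some alternative settings.

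Several peptide-processing genes rose by smaller amounts. Of 11 on this list 9 were tested and 4 were called, all higher, with a median log2 fold change of 0.42. Pcsk1 and Pcsk2, the convertases that cut propeptides, rose by 1.56 ± 0.25 and 0.64 ± 0.16 on the log2 scale. Pam, which amidates peptide ends, rose by 0.42 ± 0.11 and Scg2, a granule protein, by 0.59 ± 0.13, and both calls were lost without the nuclei of 3 or more glial and vascular UMIs and with thinning. Of 5 genes of GABA loading and uptake, Abat, which breaks down GABA, was called lower at -0.43 ± 0.14, a call lost in 13 of 17 alternative settings.

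Some activity-regulated genes were higher in Vip nuclei than in the other inhibitory nuclei. Of 10 on this list 8 were tested and 4 were called higher. Against the Cnr1-high nuclei, a group defined below, 5 were tested and none was called, with 2 at an unadjusted p under 0.05. Egr1 lay at 0, 21.9 and 40.8 CPM against 2.61, 5.01 and 8.29 CPM (log2 fold change 2.09 ± 0.44, adjusted p = 1.35e-04), an immediate early transcription factor whose values overlapped between the groups. Fos rose by 1.55 ± 0.45, Nr4a1 by 1.09 ± 0.22 and Fkbp5, a target of the glucocorticoid receptor, by 0.61 ± 0.16 on the log2 scale. The Fos call was lost in the 6 WT and GKO mice alone and with Vip at 1 UMI or more, and the Fkbp5 call without the nuclei of 3 or more glial and vascular UMIs, with thinning and without the mouse as a block.

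None of the 11 genes of App processing was called, with a median log2 fold change of 0.02, where 11.1% of all genes tested were called. None of 6 genes that the study names in neurons was called either. The study names these as higher with GSAP deletion, a claim that a contrast between groups of nuclei does not test. App was at 415, 695 and 1018 CPM in Vip nuclei and 524, 584 and 781 CPM in the others (log2 fold change 0.14 ± 0.11, adjusted p = 0.572), and Gsap at 0, 21.6 and 35.6 CPM and 9.80, 13.5 and 16.3 CPM (log2 fold change 0.47 ± 0.36, adjusted p = 0.537).

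RNA of other cell types was present in the Vip nuclei. None of 13 tested glial and vascular markers of 15 was called. Their summed level was 142 to 911 CPM in Vip nuclei and 301 to 496 in the others, and 56 of 129 Vip nuclei had at least 3 such UMIs. No doublet caller was run. Without those nuclei 915 genes were called, 318 higher and 597 lower, 763 of them among the 1320, and the caudal, peptide and receptor genes called above kept their calls, except Chrm3, which lost it, and Sp8 and Chat, which had too few counts. With every nucleus thinned to 3000 UMIs 725 genes were called (270 higher and 455 lower), and without the mouse as a block 816.

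Against Sst nuclei, 441 inhibitory nuclei with at least 3 Sst and at most 1 Vip UMIs, 1175 of 9120 genes were called (12.9%), 599 higher (6.57%) and 576 lower (6.32%). Adarb2 was at 20.9, 180.1 and 358 CPM in the Sst nuclei, below every Vip sum (log2 fold change 6.33 ± 0.59, adjusted p = 1.92e-04). Tac2 again had the highest fold change at 8.13 ± 0.27, followed by D030055H07Rik (6.39), Adarb2, Slc5a7 (5.78), Cbln2 (5.58) and Egfr, the epidermal growth factor receptor (5.32 ± 0.40). Htr3a differed by 5.14 ± 0.37.

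Cck was called higher than in the Sst nuclei, at 212, 647 and 2147 CPM against 29.2, 77.8 and 161 CPM (log2 fold change 3.22 ± 0.55, adjusted p = 0.00607). Nos1, the neuronal nitric oxide synthase, was higher by 1.42 ± 0.39, a call that DESeq2 did not make and that was lost without WT 1 or the J20;GKO mouse. Lhx6 was at least 17.7-fold lower than in the Sst nuclei, 9630002D21Rik at least 17.5-fold, Layn at least 9.90-fold and Cdca7 at least 10.4-fold. Cort had a ratio of 0.0102 (exact 95% interval 0.000257 to 0.0569) to the Sst nuclei, and Npy and Crhbp fell by 6.06 and 3.71 on the log2 scale.

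In this contrast 2 of 11 genes of App processing were called, both higher, where 12.9% of all genes tested were called. Against the Cnr1-high nuclei described below 1 of 9 tested was called, higher, where 11.8% of all genes were. App was at 415, 695 and 1018 CPM in Vip nuclei and 434, 531 and 713 CPM in the Sst nuclei (log2 fold change 0.37 ± 0.12, adjusted p = 0.0307), a call lost in 8 of 13 alternative settings. Homer2, a postsynaptic scaffold, was the called gene among 6 that the study names in neurons (1.48 ± 0.17).

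The next comparison was with Cnr1-high nuclei, picked as the subclass most alike, although likeness was not measured. Cnr1-high nuclei were 149 inhibitory nuclei with at least 10 Cnr1, at most 1 Vip and at most 2 Sst UMIs, and 32 of the 129 Vip nuclei also had at least 10 Cnr1 UMIs. The Cnr1-high nuclei were deeper, with library medians of 13327 to 22224 UMIs, and the gate on Cnr1 favours deep nuclei. Of 6333 genes 749 were called (11.8%), 388 higher (6.13%) and 361 lower (5.70%). Cnr1 was left out along with the genes of the gate. Some markers of other cells were higher in the Vip nuclei here. Camk2a, the kinase gene that was the only excitatory marker tested, was called (log2 fold change 0.68 ± 0.14, adjusted p = 9.96e-04), as it was against Sst nuclei (0.46 ± 0.14). Of 6 tested glial and vascular markers 1 was called higher and 3 had an unadjusted p under 0.05, with a median log2 fold change of 0.59. The summed level of all 15 was 142 to 911 CPM in Vip and 152 to 448 CPM in Cnr1-high nuclei. Xist and its antisense partner Tsix, whose reads overlap, were called higher too (0.91 and 1.34), within the same mice. The part of these in the calls was not tested.

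Adarb2 was not called between these groups, at 8739, 11598 and 14689 CPM in Vip and 10328, 13825 and 15078 CPM in Cnr1-high nuclei (log2 fold change -0.27 ± 0.13, adjusted p = 0.212), and neither was Npas1 (log2 fold change -0.31 ± 0.15, adjusted p = 0.231). Of 5 tested caudal genes Prox1 alone was called, higher in Vip nuclei by 2.05 ± 0.24. Sox6 was higher by 2.06 ± 0.35 and Satb1 lower by 1.04 on the log2 scale, a call lost in the 6 WT and GKO mice alone and without GKO 2 or GKO 3.

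Slc5a7 had no UMI in any Cnr1-high nucleus and was at least 23.9-fold higher in Vip nuclei, a call that DESeq2 did not make. Cbln4, a synaptic organizer (5.03 ± 0.68), St3gal1, a sialyltransferase (4.29 ± 0.34), Tac2 (4.21 ± 0.56), Calb2 (4.11 ± 0.49) and Shisa8, an auxiliary subunit of AMPA receptors (4.08 ± 0.78), followed. Penk (3.82 ± 0.48), Crh (3.40 ± 0.61), Egfr (3.22 ± 0.58), Adra1b (2.40 ± 0.19) and Nos1 (1.96 ± 0.35) were higher too. From the list of neuromodulator receptors 9 genes were tested here, and 2 were called higher, 1 lower and 6 not called.

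Lower in Vip nuclei were Slc17a8, with a ratio of 0.0184 (exact 95% interval 0.00222 to 0.0673), and Calca, the gene of calcitonin and of calcitonin gene-related peptide, with 0.0159 (exact 95% interval 0.000400 to 0.0903). Npy fell by 4.78 on the log2 scale, Ntng1, a netrin-G axon guidance protein, by 3.73, Col5a2, a collagen V chain, by 3.65 and Ndnf, a secreted neurotrophic protein, by 3.41. Cck was at 212, 647 and 2147 CPM in Vip and 742, 1459 and 2682 CPM in Cnr1-high nuclei (log2 fold change -1.08 ± 0.28, adjusted p = 0.0318), and its call was lost without WT 1, GKO 2 or the J20;GKO mouse, in the 6 WT and GKO mice alone and without the mouse as a block. Cxcl14 fell by 1.41, and Reln fell by 2.22, which was not called in 8 of 13 alternative settings.

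The Vip nuclei varied among themselves. Cck had a UMI in 70 of 129 (54.3%), Calb2 in 43 (33.3%), Penk in 52 (40.3%), Tac2 in 40 (31.0%), Crh in 24 (18.6%) and Cnr1 in 120 (93.0%). In the oligodendrocyte reference the shares were 19.6% for Cck, 1.33% for Calb2, 0.425% for Penk, 0.142% for Tac2, 0.0809% for Crh and 2.30% for Cnr1. 

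At 3000 UMIs per nucleus the shares in 128 Vip nuclei became 38.3% for Cck (exact binomial 95% interval 29.8 to 47.3), 14.1% for Calb2 (8.55 to 21.3), 18.8% for Penk, 25% for Tac2, 8.59% for Crh and 72.7% for Cnr1. In the reference thinned alike, Cck was in 16.2%, Calb2 in 1.66% and the other 4 in at most 1.57% of nuclei. All 6 shares in Vip nuclei were above those of the reference at equal depth. Intervals on these counts cover counting error only. The share of Vip nuclei with Calb2 therefore depends on depth, and a nucleus without a UMI is not shown to lack the gene.

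Both Cck and Calb2 had a UMI in 19 nuclei, Cck alone in 51, Calb2 alone in 24 and neither in 35. Penk was found in 24 of 43 nuclei with Calb2 and 28 of 86 without, but in 19 of 70 nuclei with Cck against 33 of 59 without. After thinning, Penk was in 4 of 18 nuclei with Calb2 (22.2%) and 20 of 110 without (18.2%), and in 6.12% of nuclei with Cck and 26.6% of those without. Thinning left a Calb2 UMI in 18 nuclei in place of 43, so nuclei changed group. The thinned counts therefore cannot show whether the difference between nuclei with and without Calb2 came from depth. Tac2 ran the other way, in 28 of 70 nuclei with Cck and 12 of 59 without, and in 40.8% and 15.2% after thinning. These counts pool the nuclei of 8 mice, and the shares differed between mice. Nuclei with Penk ran from 0 of 7 in WT 2 to 9 of 12 in WT 3. Nuclei with Cck ran from 5 of 16 in the J20;GKO mouse to 5 of 7 in WT 2. The part of the mouse in these differences was not tested.

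Nuclei were then divided by these genes after the values were seen, so the differences are a description with no test. There were 38 nuclei with at least 2 Cck and no Calb2 UMIs, from 8 libraries, 14 with at least 2 Calb2 and no Cck, from 7, 19 with both, and 35 with neither. Their median UMIs per nucleus were 10725.5, 7946, 7944 and 8107. Several nuclei of a group come from the same mouse, and the mix of mice differs between groups: the J20;GKO mouse gave 3 of the 38 Cck and 4 of the 14 Calb2 nuclei. The groups were therefore also compared within each of the 7 mice that had both. The Calb2 group there was 1 nucleus in WT 2, WT 3 and GKO 1 and 2 nuclei in WT 1 and GKO 2. It was 3 in GKO 3 and 4 in the J20;GKO mouse.

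The Cck nuclei held more of a set of receptor and secreted-protein genes. Their pooled level of Htr2c was 553 CPM, against 53.8 in the Calb2 nuclei, 146 with both and 113 with neither. Cnr1 was at 1300.4 CPM in the Cck nuclei and 466, 374 and 498 in the other 3 groups in the same order. Tac2 was at 546, 242, 213.5 and 109.6 CPM. Each of these genes was highest in the Cck nuclei. Within mice, Htr2c and Cnr1 were higher in the Cck than in the Calb2 nuclei in 7 of 7 and Tac2 in 6 of 7. Each mouse gave only 1 to 4 Calb2 nuclei to this comparison.

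Cxcl14 was at 304 CPM in the Cck nuclei and 8.97 in the Calb2 nuclei, and Reln at 199 and 0. Adarb2 was at 17471 CPM in the Cck nuclei, 12457.5 in the Calb2 nuclei, 8982 with both and 7914 with neither, so that it was present in all 4.

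The Calb2 nuclei had the highest pooled level of Nos1, and the Cck nuclei the lowest of Penk. Nos1 was at 197 CPM in the Calb2 nuclei against 15.3, 131 and 91.9 CPM. Penk was at 126 against 10.9, 97.0 and 121 CPM, so the Cck nuclei stood apart from the other groups. Within mice, Nos1 was higher in the Calb2 nuclei in 4 and lower in 2 of 7, and Penk higher in 5 and lower in 1.

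Npy2r was at 152 CPM in the Calb2 nuclei and 45.9 in the Cck nuclei, and Prox1 at 332 and 138, although Prox1 was higher in the Calb2 nuclei in 3 of the 7 mice and lower in 4. With 14 nuclei the Calb2 group's values rest on few UMIs.

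**Figure D4:**
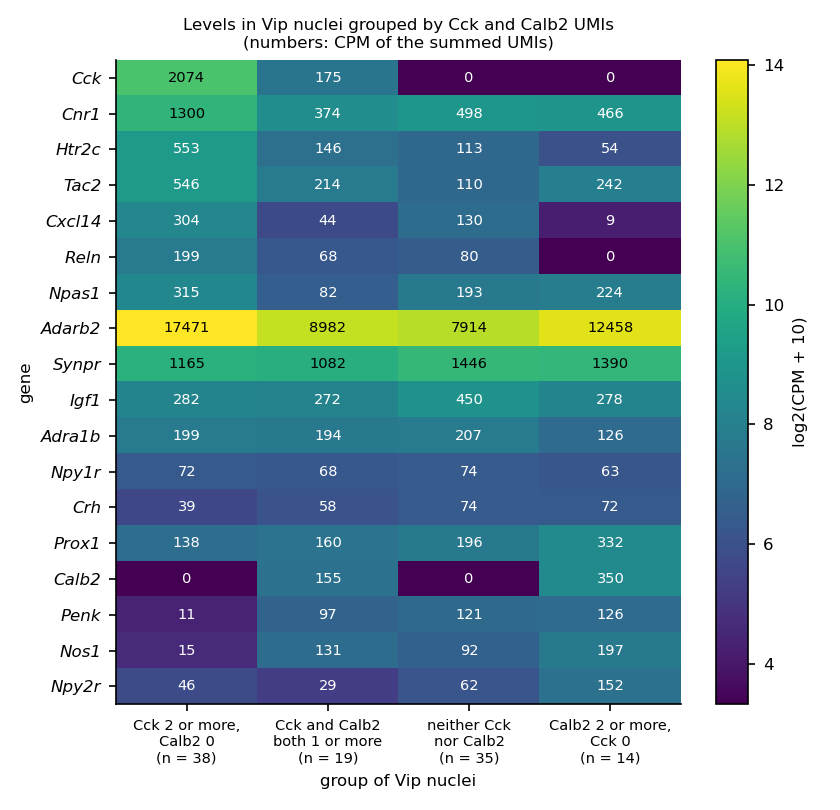
Pooled levels of 18 genes in 4 groups of Vip nuclei divided by Cck and Calb2 UMIs (columns, 38, 19, 35 and 14 nuclei), coloured on 1 scale of log2(CPM + 10) with the CPM printed in each cell. Htr2c, Cnr1, Tac2, Cxcl14 and Reln are highest in the Cck column, and Nos1, Penk and Prox1 in the Calb2 column.

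The comparison of GKO and WT mice began with the number of Vip nuclei. They made up 8.73, 3.02 and 10.2% of inhibitory nuclei in the WT mice and 5.56, 10.3 and 8.24% in the GKO mice, with 6.82% in the J20;WT and 8.84% in the J20;GKO mouse. The groups overlapped, at 7.30 ± 3.78% (SD, n = 3) and 8.02 ± 2.36% (SD, n = 3), and did not pass a 2-sided exact permutation test (p = 0.8, where 3 against 3 mice cannot go below 0.1). Where counts were thinned to 3000 UMIs per nucleus before the gate was applied, the shares were 3.57, 1.27 and 4.76% in the WT mice and 10.7, 14.0 and 5.88% in the GKO mice, which did not overlap (difference 6.98 percentage points, exact permutation p = 0.1). Those shares rest on 1 to 3 nuclei per WT mouse and 6 to 12 per GKO mouse.

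The median Vip nucleus held 9981, 9289 and 9760 UMIs in the WT mice and 13694, 7411 and 7545 in the GKO mice (9677 ± 353 and 9550.0 ± 3589, SD, n = 3 each, exact permutation p = 1). GKO 1 had the deepest Vip nuclei and GKO 2 and GKO 3 the shallowest of the 6.

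No gene was called between GKO and WT Vip nuclei. In edgeR 0 of 4355 genes passed (0%), with 139 at an unadjusted p under 0.05, and DESeq2 called 0, with 36. With the date that the data carry as a block, a fit added after the data were seen, 1 of 5057 was called, Ntng1. Among the lists, 5 of 6 caudal, 8 of 12 subset and peptide, 7 of 18 receptor and 4 of 11 App-processing genes had enough counts to be tested. Their median log2 fold changes were -0.28, -0.12, 0.00 and -0.26, against 0.00 over all genes tested. All 6 genes that the study names in neurons as higher with GSAP deletion were tested, with a median of -0.19, and none was called. The study compared excitatory and inhibitory neurons as whole classes, and it names Homer1, Homer2 and Bin1 from the J20;GKO mice.

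Genes that mark the class overlapped between the genotypes. Tac2 was at 222, 522 and 506 CPM in the WT and 106, 129.5 and 434 in the GKO mice (log2 fold change -0.85 ± 0.51, adjusted p = 0.998). Calb2 was at 45.2, 58.0 and 32.6 and 24.1, 89.3 and 66.1 CPM (log2 fold change 0.43 ± 0.47, adjusted p = 0.998). Penk was at 48.7, 0 and 212 and 24.1, 40.2 and 70.8 CPM (log2 fold change -0.98 ± 0.77, adjusted p = 0.998), and its fold change turned to 0.27 without WT 3. With SEs of this size, a difference of 1 on the log2 scale was not detectable for these genes.

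App was at 542, 827 and 791 CPM in the WT and 671, 415 and 679 in the GKO mice (log2 fold change -0.27 ± 0.29, adjusted p = 0.998). Gsap, the targeted gene, had 6, 2 and 3 UMIs in the WT Vip nuclei and 1, 5 and 4 in the GKO Vip nuclei, too few to test. In the other inhibitory nuclei its level was 12.7, 13.9 and 13.1 CPM in the WT mice and 16.3, 14.5 and 16.0 in the GKO mice, each GKO value above each WT value. This was not tested, and counts of 3′ tags that may lie outside the deleted exons do not check the genotype labels.

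The genes nearest to a call did not pass in the fit without a block. Ntng1 had the smallest p, at 59.1, 43.5 and 24.5 CPM in the WT Vip nuclei and 295, 112 and 169.9 in the GKO Vip nuclei (log2 fold change 2.02 ± 0.44, adjusted p = 0.998). Its UMIs came from few nuclei, 4, 1 and 2 in the WT and 4, 5 and 5 in the GKO mice, and 1 nucleus gave 27 of 61, 17 of 25 and 21 of 36 of the GKO UMIs. With no filter on low counts it was called, at 2.12 (adjusted p = 0.00127), as 1 of 9 genes among 16974. It was also called with the replicate number as a block, at 2.26 (adjusted p = 0.00971), and with the date as a block, at 2.25 (adjusted p = 0.0107). In the J20;WT and J20;GKO mice it was at 26.3 and 0 CPM.

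Camk4, a calcium-dependent kinase (1.26 ± 0.40), and Zfp462, a zinc-finger protein (1.36 ± 0.45), were next among the genes with a positive fold change. Cdh9, a cadherin, was at 118, 218 and 188 CPM in the WT and 48.3, 58.1 and 84.9 in the GKO mice (log2 fold change -1.36 ± 0.35, adjusted p = 0.998). Clu, clusterin, an apolipoprotein with a risk locus for Alzheimer's disease, was at 313, 145 and 196 and 48.3, 80.4 and 132 CPM (log2 fold change -1.44 ± 0.37, adjusted p = 0.998). All of these genes, like Ntng1 and Cd81, were picked by their p between the same mice. A lack of overlap between the genotypes in such genes is therefore no added support.

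Cd81, a tetraspanin, was at 278, 493 and 489 and 164, 223 and 255 CPM (log2 fold change -0.94 ± 0.30, adjusted p = 0.998). Glial and vascular markers summed to 911, 203 and 228 CPM in the WT and 521, 281 and 142 CPM in the GKO Vip nuclei, so WT 1, with the most Clu, also had the most of these. Their part in the Clu values was not tested, and without the nuclei of 3 or more such UMIs 1170 genes had enough counts and none was called. WT 1 and GKO 1 both held Xist and their data carry the same date, and the 2 other mice of each genotype lacked Xist and share a later date. What the dates mark is not given in the sources used here. Within each date Clu was lower and Ntng1 higher in the GKO mice, whereas the share of Vip nuclei had opposite orders. It was 8.73% in WT 1 against 5.56% in GKO 1, and a mean of 6.59% against 9.25% in the 2 WT and 2 GKO mice of the later date.

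**Figure D5:**
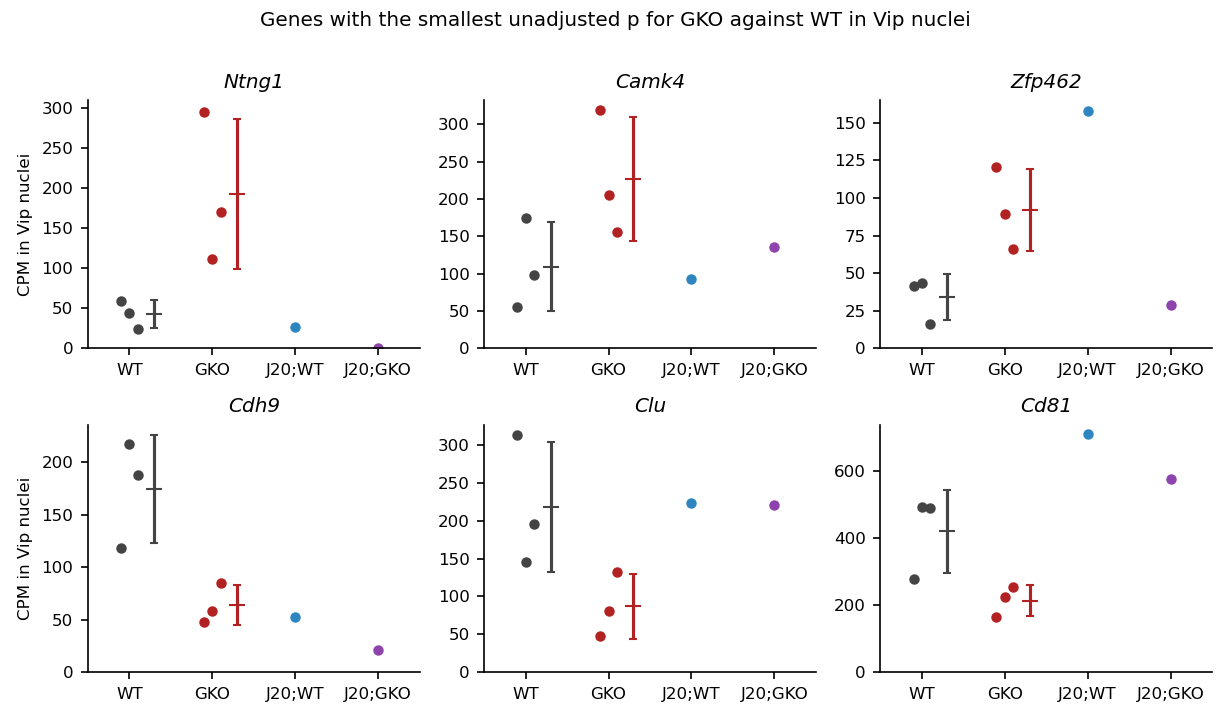
Levels (CPM) of the 6 genes with the smallest p between GKO and WT Vip nuclei, 1 point per mouse with the mean ± SD of 3 mice, and the J20 mice beside them. None passed the adjusted test without a block. The genes were chosen by their p between these same mice. The separation of WT and GKO points, seen in all but Camk4, is therefore no added support.

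Whether the genotype difference in Vip nuclei was other than that in the remaining inhibitory nuclei was tested as an interaction. In edgeR 0 of 11283 genes were called (0%), with 507 at an unadjusted p under 0.05. Leaving out 1 mouse at a time gave 0 to 14 calls. Ntng1 had the smallest p among positive differences (log2 fold change 1.86 ± 0.41, adjusted p = 0.251) and was called without WT 1, GKO 2 or GKO 3. With a term for the date 5 genes were called, Ntng1, Mir670hg, 6530403H02Rik, Fras1 and Tac1, of which the last 4 are named after their values were seen. Dpy19l1, a mannosyltransferase (2.66), Abcb10, a mitochondrial transporter (2.69), Cdh9 (-1.25), Trps1, a repressor of the GATA family (-1.27), and Tcf7l2, a Wnt effector with 13 UMIs in the Vip nuclei of WT 1 and 0 in those of the other 5 mice, did not pass.

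The J20;WT and J20;GKO mice gave 9 and 16 Vip nuclei with 75983 and 140534 UMIs, and with 1 mouse each there is no test. Of 1280 genes that reached 30 UMIs over both mice, 75 had a log2 ratio of J20;GKO over J20;WT above 1 and 57 one below -1 (10.3% past 1 in either direction), and the median was 0.02. Intervals on these ratios cover counting error only. Adarb2 had a log2 ratio of 0.31 (95% interval 0.18 to 0.44), Tac2 of 0.38 (95% interval -0.33 to 1.16), Penk of 0.09 (95% interval -0.83 to 1.11), Cck of 0.06 (95% interval -0.45 to 0.60) and App of 0.51 (95% interval 0.06 to 1.00). The point values of these genes were all under 1 in size, although the intervals of Tac2 and Penk reach past it.

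The lowest ratios belonged to genes held by single nuclei. Nxph1 had 43 UMIs in the J20;WT and 0 in the J20;GKO Vip nuclei, with 32 of the 43 in a nucleus with 2 Vip UMIs. Col19a1, a collagen, had 36 and 1, 27 of them in 1 nucleus. Sgcz, a sarcoglycan, had 116 and 10, a log2 ratio of -4.36 (95% interval -5.52 to -3.49), with 74 in the nucleus with 2 Vip UMIs.

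The highest ratio was that of Xist, the noncoding RNA of the inactive X chromosome, with 0 UMIs in the J20;WT and 279 in the J20;GKO Vip nuclei, so the pair also differed in sex. Gm16083 followed with 2.72 (95% interval 1.04 to 6.13) from 2 and 30 UMIs, and Mir670hg, a microRNA host transcript, with 2.37 (95% interval 0.90 to 4.92) from 3 and 33. The data of the J20;WT mouse carry a date of their own, and those of the J20;GKO mouse the later date of the WT and GKO mice. Genotype, sex, date and mouse cannot be told apart in this pair.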

How the data were processed

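Nuclei from the hippocampi of 8 mice were profiled with 10X Genomics 3′ single-nucleus RNA sequencing, 1 library per mouse. The authors made the deposited UMI counts with Cell Ranger (version 3.0.2 in the file headers) on mm10, without normalization. Their own clusters, made in Seurat 3.0 under R 3.6.2 per the submitters' processing notes, are not used here. No column lacked a sample.

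The gate was applied to the deposited counts with a mitochondrial limit of 5%. Counts were summed per mouse and group of nuclei, and compared with edgeR 4.0.16 (TMM, filterByExpr, robust quasi-likelihood fit) in R 4.3.3 with Benjamini-Hochberg adjustment. A mouse entered with at least 5 nuclei. The mouse was a block where its own groups of nuclei were compared. Genes that a gate reads were left out. Calls needed both an adjusted p below 0.05 and a log2 fold change beyond ±0.3. DESeq2 1.42.0, RLE scaling, no filter, other gates, thinning to 3000 UMIs and leaving out each mouse were alternatives. Single measures were compared with 2-sided exact permutation tests (scipy 1.17.1). The edgeR fits of GKO against WT in Vip nuclei and of Vip against the other inhibitory nuclei were also run on simulated data. For the J20 pair, 0.5 was added to each count and genes needed 30 UMIs.

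Genes named are those of fixed lists, the 12 highest and 12 lowest called fold changes against the other inhibitory nuclei, the 6 highest and lowest against Sst and Cnr1-high nuclei, the 3 smallest p in each direction for genotype, and the 3 highest and lowest J20 ratios. Some genes that these rules name are not reported here, and the oligodendrocyte reference was gated on 3 of its 4 planned genes. Egfr in the Cnr1-high comparison was named after its values were seen. The members and lists were chosen with earlier results of these data known. Gene positions follow GENCODE M21, which held 30149 of 30211 features by gene ID.

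The WT and GKO replicate numbers were not taken as pairs. Deviations from the group means over the Vip sums correlated at 0.242, 0.00969 and 0.157 for the mice of the same number, and over the sums of all nuclei at 0.570, 0.185 and 0.219, where WT 2 with GKO 3 (0.216) and WT 3 with GKO 2 (0.303) were as high. WT 1 and GKO 1 share a date in the deposited data, and the mice numbered 2 and 3 share another, so the date was also fitted as a block.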

Additional observations from a re-analysis of the deposited data

Results flagged for a closer look

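Outside the gate, 43 nuclei with 1 or 2 UMIs of Gad1 and Gad2 together had at least 10 UMIs of Vip, a signal in nuclei that the comparisons leave out, against 0 of 4946 oligodendrocyte reference nuclei. They came from all 8 libraries, with 7, 6 and 2 in the WT mice, 1, 6 and 13 in the GKO mice, 3 in the J20;WT mouse and 5 in the J20;GKO mouse. Their median depth was 7074 UMIs. Adarb2 had a UMI in 43 of the 43, Synpr in 43 and Igf1 in 29.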

How the results depend on the processing

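Against the other inhibitory nuclei, 816 genes were called without the mouse as a replicate block and 725 after thinning to 3000 UMIs, in place of 1320. With Vip at 3 UMIs or more 1510 were called, with Vip at 1 UMI or more 961, and with no filter on low counts 1455. Between 1072 and 1269 were called when 1 mouse was left out. Without the block 783 genes were called against Sst nuclei and 449 against Cnr1-high nuclei, where leaving out 1 mouse gave 581 to 735. The fits without the block and with thinning tested fewer genes. For GKO against WT, 9 genes were called with no filter on low counts. With the replicate number as a block 1 gene was called, Ntng1 (log2 fold change 2.26, adjusted p = 0.00971), and this block left the difference in the share of Vip nuclei at 0.717 percentage points. With the date of the data as a block, added after seeing the data, it was 1, again Ntng1. The count was 0 in the other alternatives tried. For the interaction it was 0 to 14, with 5 without WT 1, 14 without WT 3, 5 without GKO 1, 5 without GKO 2 and 7 without GKO 3, and 5 with a term for the date, and the cause was not tested.

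App turned to -0.10 against the other inhibitory nuclei without nuclei of 3 or more glial and vascular UMIs, and Penk to 0.27 between genotypes without WT 3 (-1.42 to 0.27 with 1 mouse left out). The share of Vip nuclei, 0.717 percentage points higher in GKO mice, ran from -1.43 to 2.15 with 1 mouse left out, was -1.43 without WT 2 and -0.405 without GKO 2, and was 0.113 as a share of all nuclei. The median UMIs per Vip nucleus, 127 lower in GKO mice, ran from -2199 to 943, with 25.5 without WT 1, 943 without GKO 2 and 876 without GKO 3, and was 341.5 with Vip at 3 UMIs or more. A wider gate, at least 10 Vip UMIs and 1 UMI of Gad1 and Gad2, was chosen after seeing the data and called 0 of 3210 genes between genotypes. With 7 to 27 Vip nuclei per WT or GKO mouse, depth limits every genotype value.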
